A study of Mus musculus with 2 samples.

Results

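The measurements concern 42 genes of the dividing cell, 19 that act around S phase and 23 that act in G2 and mitosis (G2/M), out of 31053 features in each of 2 single-cell RNA matrices. The genes were taken from a list by name, and all 42 were found in both matrices. The libraries hold CD45+ cells that were sorted from hearts. All mice were wild type C57BL/6 and 10 weeks old. One group had a sham operation. The other had transverse aortic constriction (TAC), a surgical narrowing of the aortic arch that raises the pressure the left ventricle works against. Each group was 6 mice in 1 library, in which the animals cannot be told apart, and the sources used here do not give the time after surgery. A difference between the libraries therefore cannot be told apart from a difference between the conditions, and no test was made. Intervals are exact, at the 95% level, and cover counting error only.

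A dividing cell passes from G1 through S phase, in which it copies its DNA, and through G2 into mitosis. The E2F factors switch on the genes for DNA copying near the start of S phase, while genes for chromosome packing, the spindle and mitotic exit are switched on later by MuvB complexes, which bind an element called CHR, and by NF-Y, which binds CCAAT. Resident macrophages of the heart are known to renew themselves by division in place, T and NK cells divide once stimulated, and mature neutrophils do not divide.

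Those elements were searched for in the RefSeq promoters of the genes, on GRCm38.p6, in windows of 300 bases, 250 before to 50 after the start of the gene. Windows were found for 35 of the 42 genes. Mcm4, Gins2, Ccne2, Aurkb, Ccna2, Tpx2 and Stmn1 had none. The letters searched, on both strands, were TTTCCCGC, TTTGGCGC, TTTCGCGC and TTTGCCGC for E2F, TTTGAA and TTCGAA for CHR, and CCAAT. Copies of different motifs may overlap in a window. E2F letters stood in 5 of 16 S promoters (Cdc6, Mcm3, Mcm5, Mcm6 and Mcm7), in 1 of 19 G2/M promoters (Cdk1) and in 2.32% of the promoters of all 27025 genes, with 1 window a gene. CHR letters stood in 3 of 16 S promoters (Cdc45, Mcm2 and Mcm7), in 14 of 19 G2/M promoters and in 19.4% of all. CCAAT stood in 11 of 16, 17 of 19 and 37.9%, and CHR together with CCAAT in 3 of 16, 14 of 19 and 7.70%. A match is a description of letters, not a binding site or a cause. The stretches below, 150 bases each and written 5′ to 3′ on the strand of the gene, show the contrast between the phases, with motif letters in capitals. Mcm3, a helicase subunit, and Top2a, the topoisomerase that untangles chromosomes, were taken as the genes with most UMIs among the phase-specific genes whose window holds E2F or CHR letters. Mcm6, another helicase subunit, Mki67, the proliferation marker that coats mitotic chromosomes, Cdk1, the kinase of mitotic entry, and Ube2c, a ubiquitin-conjugating enzyme of mitotic exit, were added after their motifs were seen. The E2F letters of Mcm3 begin after the start of the gene, outside its stretch.
Mcm3 (S, chr1:20820313-20820462, minus strand): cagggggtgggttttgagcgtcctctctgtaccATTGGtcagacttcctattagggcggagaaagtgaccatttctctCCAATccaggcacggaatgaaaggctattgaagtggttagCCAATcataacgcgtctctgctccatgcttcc
Mcm6 (S, chr1:128359706-128359855, minus strand): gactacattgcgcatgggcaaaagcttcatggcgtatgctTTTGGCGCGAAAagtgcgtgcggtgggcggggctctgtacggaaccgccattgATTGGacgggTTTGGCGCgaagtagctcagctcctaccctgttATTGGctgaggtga
Top2a (G2/M, chr11:99024190-99024339, minus strand): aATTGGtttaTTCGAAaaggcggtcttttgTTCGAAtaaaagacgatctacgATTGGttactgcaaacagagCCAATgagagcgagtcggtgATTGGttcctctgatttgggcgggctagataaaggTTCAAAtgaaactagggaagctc
Mki67 (G2/M, chr7:135716380-135716529, minus strand): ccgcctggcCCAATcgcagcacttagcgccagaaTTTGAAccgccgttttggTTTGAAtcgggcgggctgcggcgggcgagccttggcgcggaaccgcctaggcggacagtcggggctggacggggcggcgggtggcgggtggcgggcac
Ube2c (G2/M, chr2:164769779-164769928, plus strand): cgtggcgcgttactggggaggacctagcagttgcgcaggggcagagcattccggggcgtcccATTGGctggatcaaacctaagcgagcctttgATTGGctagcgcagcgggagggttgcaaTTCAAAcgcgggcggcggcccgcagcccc
Cdk1 (G2/M, chr10:69352913-69353062, minus strand): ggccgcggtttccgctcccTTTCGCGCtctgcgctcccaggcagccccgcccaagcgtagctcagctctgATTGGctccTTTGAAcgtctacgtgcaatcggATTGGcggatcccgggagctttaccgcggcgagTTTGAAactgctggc
The Mcm3 stretch shows CCAAT letters alone, Mcm6 shows E2F and CCAAT, Top2a, Mki67 and Ube2c show CHR and CCAAT, and Cdk1 holds all 3 kinds.

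The sham library held 11941 barcodes and the TAC library 7975, and filters on genes and mitochondrial reads kept 4169 (34.9%) and 5601 (70.2%). Median depth of kept cells was 9536 unique molecular identifiers (UMIs) in sham and 13892 in TAC, and the median mitochondrial share was 8.02% and 4.42%. The libraries shared 35 barcodes, 7 among the kept cells. Clusters were named only by resemblance to marker lists. As a check of the sort, Ptprc, which encodes CD45, was at 366 and 399 CPM (UMIs of a gene per 1000000 UMIs) in macrophage-like cells, and at 73.5 and 35.3 CPM in fibroblast-like cells. Many cells of other classes also carried the complement genes C1qa, C1qb and C1qc of macrophages: at least 50 C1q UMIs per 10000, called C1q-rich here, were found in 86.6% of sham and 68.6% of TAC T-like cells, in 94.3% and 44.7% of NK-like cells and in 88.7% and 40.4% of neutrophil-like cells. Doublets were not called, so such barcodes may hold RNA of more than 1 cell, and their part in each result was not tested.

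Cells carrying the genes were found in nearly every class, with the highest TAC shares among named classes in NK-like, dendritic-like and T-like cells, and the lowest in fibroblast-like and endothelial-like cells. A cell was counted as carrying the programme when, thinned to 2000 UMIs, it had UMIs of at least 3 different S genes or of at least 3 different G2/M genes. Pcna, Dut, Slbp, Stmn1, Tubb5 and Hmgb2, which non-dividing cells also express, were left out, so 16 S and 20 G2/M genes remained. By this count 260 sham and 522 TAC cells carried the programme. Macrophage-like cells made up 51.5% of those in sham and 44.6% in TAC. The same class made up 64.6% and 38.8% of all kept cells. T-like cells supplied 4.62% and 11.7% of the carrying cells, neutrophil-like cells 1.15% and 11.3%, and NK-like cells 1.54% and 4.41%. Unnamed clusters supplied 21.9% and 14.2%, and dendritic-like cells 12.3% and 4.6%.

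Among macrophage-like cells, 134 of 2686 carried the programme in sham (4.99%, interval 4.20 to 5.88) and 233 of 2153 in TAC (10.8%, 9.54 to 12.2), a ratio of 2.17 (1.75 to 2.70). Without thinning the shares were 13.6% and 30.9%, at median depths of 8553 and 13555 UMIs. The background of the design was mature neutrophils, and C1q-poor neutrophil-like cells gave 0 of 19 in sham and 4 of 727 in TAC. Fibroblast-like cells, given for comparison, had median depths of 8925 and 15242 UMIs. They gave 0 of 211 in sham, which allows a share of up to 1.42%, and 4 of 248 in TAC (1.61%). Their summed G2/M genes were higher in TAC, so they are not a plain background. Unthinned, the fibroblast-like shares were 5.66% and 16.9%. The macrophage-like ratio was 1.16 with at most 5% mitochondrial UMIs, where 49 sham cells were left, and 4.59 with at most 25%. Cells were clustered and named anew at each limit. At 25% the class held 6331 sham and 1897 TAC cells, against 2693 and 2172 at 10%, so the limit is not all that differs.

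The carrying macrophage-like cells sat in different clusters in the 2 libraries. In sham, 62 of the 134 (46.3%) lay in 1 cluster of 65 sham and 8 TAC cells, led by Hist1h2ae, Stmn1, Mki67 and Top2a, although neither the 42 genes nor the further replication, mitotic and histone genes given below were used for clustering. Clusters 4, 0 and 3, which held most of the sham class, carried the programme in 1.58%, 4.12% and 2.85% of their sham cells, and held 1, 2 and 1 carrying cells in TAC. In TAC, 197 of 233 (84.5%) lay in cluster 14, led by Ch25h, Ccl12, Gbp2b, Cd72 and Cxcl10, in which 14.3% of cells carried the programme. A further 21 lay in cluster 15, led by the resident macrophage genes Ccl8, Lyve1 and Timd4, at 5.16%. In none of the 6 macrophage-like clusters with carrying cells in both libraries was the share higher in TAC: the TAC to sham ratios ran from 0.40 to 0.997, with intervals that all include 1. Cluster 14 held 6 sham cells, of which 0 carried the programme. Without the cluster led by cell cycle genes, the class gave 2.75% in sham and 10.5% in TAC, a ratio of 3.84.

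Macrophage-like cells were also split by UMIs of subset genes, which gives ranges of a score and not cell types. Resident cells, with at least 2 UMIs over Lyve1, Folr2 and Timd4, carried the programme in 77 of 2016 sham cells (3.82%) and 76 of 1017 TAC cells (7.47%), a ratio of 1.96 (1.41 to 2.72). Cells below that limit with a UMI of Ccr2, a chemokine receptor found on cells that came from monocytes, did so in 3 of 93 (3.23%) and 20 of 140 (14.3%), a ratio of 4.43 (1.31 to 23.3). Of the rest, those with at least 10 UMIs of the MHC class II genes gave 16 of 419 (3.82%) and 127 of 892 (14.2%), a ratio of 3.73 (2.21 to 6.72). The remaining cells gave 38 of 158 (24.1%) in sham and 10 of 104 (9.62%) in TAC, a ratio of 0.40 (0.18 to 0.82). All 3 marked subsets were thus higher in TAC, and the intervals of their ratios overlap, while the remaining cells were lower in TAC. Near the resident limit, with 1 or 2 UMIs, lay 537 sham and 536 TAC cells, of which 8.38% and 11.4% carried the programme. Near the MHC class II limit, with 8 to 11 UMIs, lay 21 and 29 cells, with a ratio of 0.72 (0.097 to 5.41).

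**Figure D1:**
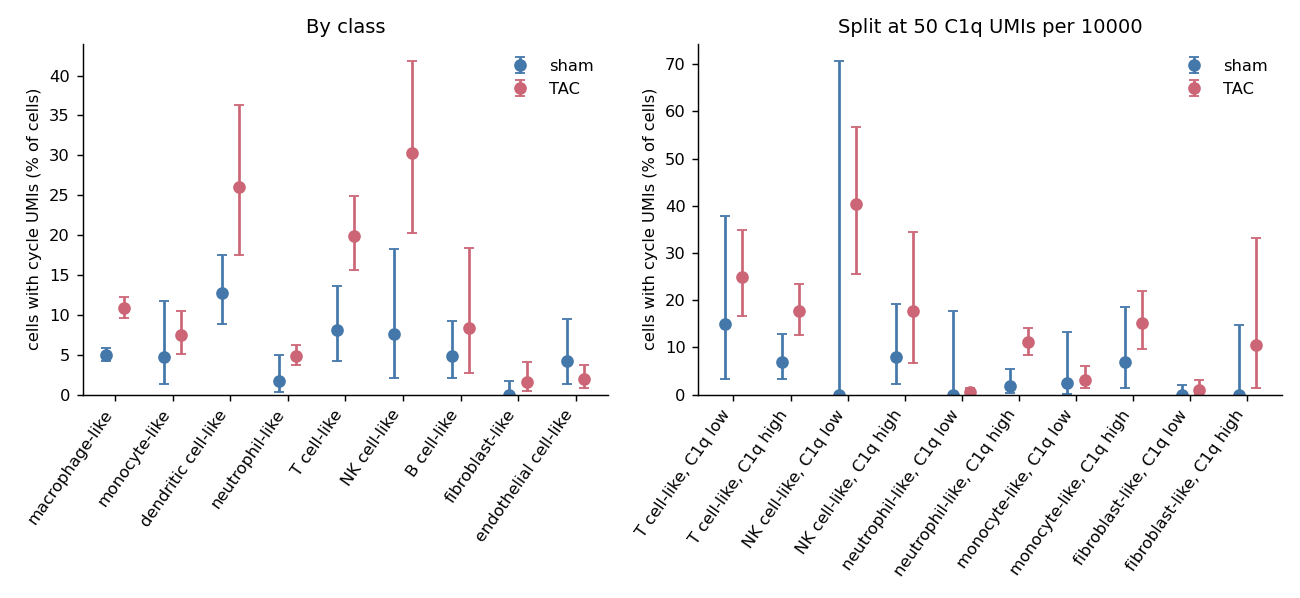
Share of cells (%, vertical axis) with UMIs of at least 3 phase-specific S or 3 phase-specific G2/M genes after thinning to 2000 UMIs. The first panel shows marker-defined classes. The second shows C1q-poor and C1q-rich cells of the T-like, NK-like, neutrophil-like, monocyte-like and fibroblast-like classes. Exact 95% intervals cover counting error only. TAC lies above sham in macrophage-like (4.99% and 10.8%), T-like (8.05% and 19.9%) and NK-like cells (7.55% and 30.3%), and C1q-poor neutrophil-like cells of TAC lie at 0.55%.

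Single genes were compared in macrophage-like cells by UMIs summed over the class, as CPM. Such sums cannot tell more cells with a gene from more RNA of it per cell. In TAC, 26 of the 42 genes lay above sham by 1.5-fold or more and 0 lay below it by as much. Over all 12395 genes with at least 20 UMIs, 13.3% were higher and 21.4% lower by this rule. The median log2 ratio was 0.69 over the 42 genes and -0.09 over all genes tested. By phase, 10 of 19 S genes and 16 of 23 G2/M genes were past 1.5-fold. The count fell to 13 with barcodes above 30000 UMIs left out, and to 12 with only barcodes of 5 to 10% mitochondrial UMIs. It fell to 4 with 2 dropped clusters put back in the class, and was 26 with only the cluster dropped by its leading genes put back. With at most 5% mitochondrial UMIs, 5 genes were higher and 18 lower.

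The S genes differed in how far the libraries stood apart. Of the replication licensing and helicase genes (Mcm2 to Mcm7, Gins2, Cdc6 and Cdc45), which load and open the DNA at origins, 6 of 9 were past 1.5-fold and the log2 ratios ran from 0.47 to 0.87. Mcm3 was at 26.4 (sham) and 44.1 CPM (TAC), a ratio of 1.67 (1.52 to 1.83). Of the clamp and nucleotide genes, Rrm2, the regulated subunit of ribonucleotide reductase, and Dut, which clears dUTP, were past 1.5-fold, while Tyms, Rrm1 and Pcna were not. Pcna, the sliding clamp of the polymerases, was at 72.8 and 82.3 CPM, a ratio of 1.13 (1.06 to 1.2). Slbp, which binds the stem-loop of histone mRNA, was level between libraries at 59.7 and 60.2 CPM, and its ratio of 1.01 (0.94 to 1.08) was among the lowest of all. Uhrf1, which carries DNA methylation through replication, did not pass 1.5-fold either. Of the E cyclins of the G1/S transition, Ccne1 was at 1.09 and 3.04 CPM, a ratio of 2.79 (1.81 to 4.41), and Ccne2 also passed 1.5-fold, with a ratio of 1.57 (1.14 to 2.18). E2f1, the transcription factor that switches S genes on, was at 19.0 and 21.2 CPM, a ratio of 1.12 (0.99 to 1.26).

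Among G2/M genes Plk1 and Aurka had the highest ratios. Plk1, the polo-like kinase of mitotic entry and exit, was at 3.08 (sham) and 8.94 CPM (TAC), a ratio of 2.90 (2.25 to 3.77). Aurka, the spindle pole kinase, was at 3.12 and 8.72 CPM, a ratio of 2.80 (2.17 to 3.63), and Aurkb, its centromere counterpart, at 9.78 and 17.1 CPM, a ratio of 1.75 (1.5 to 2.04). All 3 kinases and all 4 of the mitotic cyclins and their partner (Ccna2, Ccnb1, Ccnb2 and Cdk1) passed 1.5-fold. Cdk1 was at 19.5 and 33.5 CPM, a ratio of 1.72 (1.54 to 1.91). Of the checkpoint and degradation genes, Ube2c, at 29.9 and 65.3 CPM with a ratio of 2.19 (2.01 to 2.38), and Cdc20, the activator of the anaphase-promoting complex, passed, and the checkpoint kinases Bub1 and Bub1b did not. Of the centromere and spindle genes, Birc5 (survivin), Tpx2, Cenpe and Cenpf passed, and Prc1, Nusap1 and Cenpa did not. Birc5 was at 35.3 and 61.1 CPM, a ratio of 1.73 (1.60 to 1.87). Cenpa, the histone variant that marks centromeres, was the only gene of the 42 below 1, at 35.4 and 33.9 CPM and a ratio of 0.96 (0.88 to 1.05).

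The chromosome and tubulin genes included the most widely used markers of division. Top2a was at 54.2 (sham) and 95 CPM (TAC), a ratio of 1.75 (1.64 to 1.87). Mki67 was at 64.4 and 84.2 CPM, a ratio of 1.31 (1.23 to 1.39), and so did not pass 1.5-fold. Hmgb2, a chromatin protein that many non-dividing cells express, was at 263 and 489 CPM. Tubb5, a beta tubulin, was at 323 and 492 CPM, just past 1.5-fold with a ratio of 1.52 (1.48 to 1.56), and Stmn1, which destabilises microtubules, did not pass. Pcna, Tyms, Ccnb1 and Ccnb2 have named pseudogenes, and Tubb5 and Hmgb2 have near copies, so their values are uncertain if reads were split. Of the 42 genes, 9 overlap a gene on the opposite strand, and the sources used here do not say whether counting used the strand, so reads of such partners cannot be told apart.

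**Figure D2:**
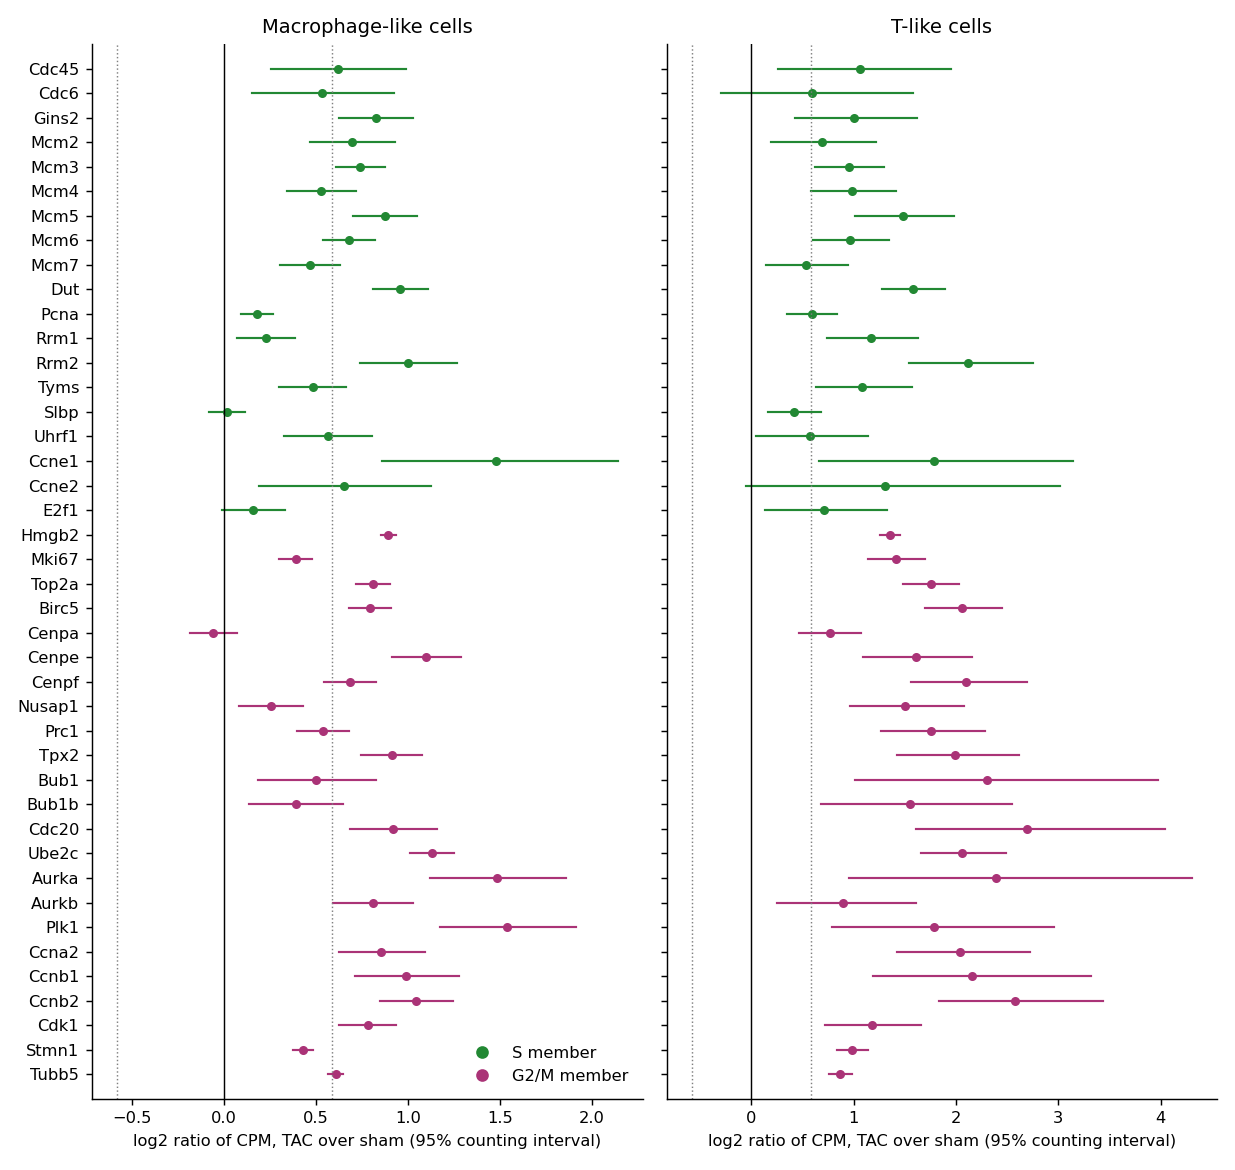
TAC to sham ratio (log2, horizontal axis) of each of the 42 genes, from UMIs summed over macrophage-like and over T-like cells, with exact 95% counting intervals and dotted lines at 1.5-fold. In macrophage-like cells 26 genes lie past the upper line and Cenpa lies below 0, and in T-like cells 37 lie past the upper line and 0 past the lower.

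How the genes fell over single cells was looked at in TAC macrophage-like cells, with each cell's phase called without the gene shown and the cell thinned to 2000 UMIs. Top2a had a UMI in 1.51% of cells without the programme, in 23.0% of cells with S genes only, in 83.3% of cells with both sets and in 65.6% of cells with G2/M genes only. Mki67 gave 2.28%, 11.6%, 72.4% and 61.1% in the same order, and Ube2c 0.78%, 4.48%, 25.8% and 50.4%. The S gene Mcm6 gave 3.98%, 28.0%, 31.0% and 5.11%, so few cells with G2/M genes alone had it in TAC. In sham those shares were 2.77%, 39.1%, 15.4% and 14.5%. Not every S gene had this pattern: in TAC, Tyms gave 5.26% with S genes only and 11.4% with G2/M genes only, Rrm2 6.45% and 10.1%, and Uhrf1 6.35% and 9.42%. Mcm3 was less bound to the phase, at 4.75%, 26.0%, 27.3% and 18.1%. Of the 6 genes left out of the count, Tubb5 had a UMI in 40.4% of cells without the programme and Hmgb2 in 39.1%, and Pcna (11%), Stmn1 (8.91%), Slbp (8.54%) and Dut (3.28%) in fewer. Hmgb2 also had a UMI in 83.9% of C1q-poor TAC neutrophil-like cells. Over all macrophage-like cells, Top2a had a UMI in 3.65% of sham and 7.06% of TAC cells after thinning, and in 6.35% and 16.6% before it, against 0.47% and 0.81% in thinned fibroblast-like cells. Of the thinned sham cells with Top2a, 18.4% were outside the carrying cells. For Mcm3 that share was 86.8%.

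**Figure D3:**
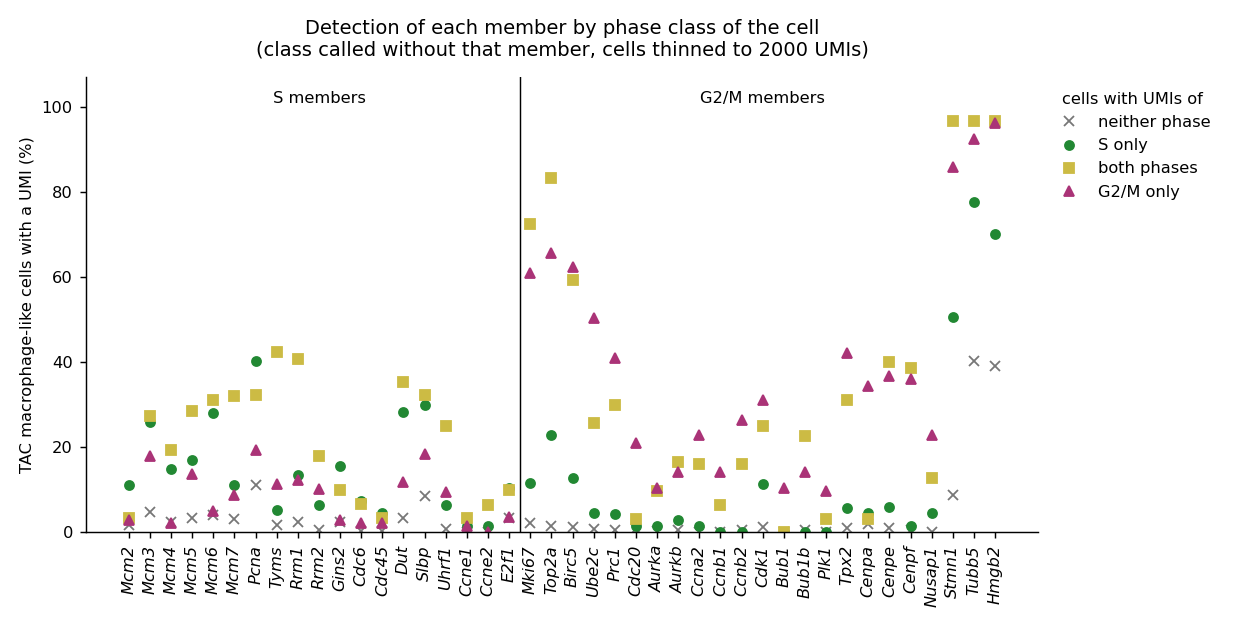
Percentage of TAC macrophage-like cells with a UMI of each gene after thinning to 2000 UMIs, by the phase genes the cell carried when called without that gene. Top2a runs from 1.51% in cells without the programme to 83.3% in cells with both sets, while Hmgb2 and Tubb5 already lie near 40% in cells without it.

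The carrying cells differed from other macrophage-like cells in genes that the count did not use. They were deeper: median UMIs were 8369 in sham cells without the programme against 13382 in those with both sets, and 13034 against 23602 in TAC. The histone genes listed include the variants H2afz and H2afx, so their sum is not of replication histones alone. In sham they summed to 605 CPM without the programme, 1394 with S genes only, 9195 with both sets and 6224 with G2/M genes only. In TAC they summed to 654, 2283, 6681 and 6474 CPM. Ccnd1, the cyclin of G1, was at 137 CPM in sham cells without the programme, 344 with S genes only, 106 with both sets and 52.2 with G2/M genes only. The TAC values were 361, 630, 390 and 294 CPM, so cells with both sets lay below cells without the programme in sham and above them in TAC. Cdkn1a, which encodes the inhibitor p21, was at 593 CPM in sham cells without the programme, 438 with S genes only, 1241 with both sets and 1188 with G2/M genes only. In TAC it was at 667, 476, 605 and 772 CPM. Carrying cells also had the macrophage genes, with median C1q of 131 to 162 UMIs per 10000 in sham, against 172 in cells without the programme.

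Further genes of the pathway were compared in macrophage-like cells on the same scale. Over all genes tested there, 13.3% were higher and 21.4% lower. Of 32 other DNA replication genes, 21 were past 1.5-fold higher in TAC, 0 were lower and the median log2 ratio was 0.73. Gins1, of the replicative helicase, was at 2.38 and 7.02 CPM, and Cdca7 at 2.22 and 5.36 CPM, while Atad2 (1.02) and Dtl (1.08) had the lowest ratios. Of 50 other mitotic genes, 28 were higher and 0 lower, with a median of 0.68. Cdca8, a partner of Aurkb, was at 17.2 and 39.8 CPM, and Mybl2, a MuvB partner, at 0.90 and 2.04 CPM. Aspm, at 11.5 and 8.25 CPM, and Kif23, at 33.7 and 27.8 CPM, were on the other side of 1. Of 12 listed histone genes 9 were higher, led by Hist1h3c at 14.5 and 50.2 CPM and Hist1h2ab at 13.9 and 43.4 CPM. Hist1h2ap (0.92) and the variant H2afz (1.08) had the lowest ratios. Of 15 G1 cyclins, kinases and their regulators, 4 were higher: Ccnd1 at 137 and 366 CPM, Ccnd2 at 54.8 and 121 CPM, E2f2 and E2f3. Myc and Cdk6 had the lowest log2 ratios of that list, at -0.51 and -0.47. Of 18 Cdk inhibitors, pocket proteins and related brakes, 0 were higher and 3 lower, a share of lower genes no greater than that of all genes, with a median of -0.24. Those were Cdkn1c, the inhibitor p57, at 26.9 (sham) and 7.06 CPM (TAC), the antiproliferative gene Btg2 at 1051 and 448 CPM, and the pocket protein gene Rbl2. The highest of that list were Rbl1 and Cdkn2d, with log2 ratios of 0.56 and 0.44.

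T-like cells carried the programme in 12 of 149 sham cells (8.05%, 4.23 to 13.7) and 61 of 306 TAC cells (19.9%, 15.6 to 24.9), a ratio of 2.48 (1.32 to 5.05). Unthinned, the shares were 30.9% and 57.8%, at median depths of 15963 and 21460 UMIs. Cells with a UMI of Cd8a or Cd8b1 gave 1 of 30 in sham (3.33%) and 31 of 149 in TAC (20.8%). Cells with neither these nor Cd4 gave 10 of 116 (8.62%) and 30 of 149 (20.1%), and cells with Cd4 alone numbered 3 and 8. Among C1q-poor T-like cells the share was 3 of 20 in sham (15%) and 24 of 96 in TAC (25%), a ratio of 1.67 (0.51 to 8.65). Among C1q-rich ones it was 9 of 129 (6.98%) and 37 of 210 (17.6%), a ratio of 2.53 (1.2 to 5.95). Of the 38 macrophage markers, all had UMIs in C1q-rich T-like cells, where they summed to 64380 CPM in sham and 54057 CPM in TAC, against 87588 and 77823 CPM in macrophage-like cells. Their part in the T-like result was not tested. In barcodes with 5 to 10% mitochondrial UMIs, 12 of 138 sham cells (8.70%) and 6 of 97 TAC cells (6.19%) carried the programme. The ratio there was 0.71, or -0.49 as log2, with a wide interval of -2.19 to 1.03.

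In T-like cells 37 of the 42 genes were past 1.5-fold higher in TAC and 0 lower, where 19.5% of 10540 genes were higher and 18.7% lower. The median log2 ratio was 1.38, against 0.03 over all genes. All 23 G2/M genes and 14 of 19 S genes were past 1.5-fold. Cdc20 was at 2.90 (sham) and 18.8 CPM (TAC), a ratio of 6.47 (3.05 to 16.4) that rests on 7 sham UMIs. Ccnb2, a mitotic B cyclin, was at 6.22 and 37.2 CPM, a ratio of 5.97 (3.55 to 10.8), and Aurka at 1.66 and 8.68 CPM, a ratio of 5.23 (1.94 to 19.8) on 4 sham UMIs. Mki67 was at 50.6 and 135 CPM and Top2a at 51.0 and 172 CPM. The lowest log2 ratios, with 0.5 UMI added to each count, belonged to S genes: Slbp at 64.7 and 86.3 CPM (0.41), Mcm7 at 27.0 and 39.0 CPM (0.52) and the origin loader Cdc6 at 5.39 and 8.11 CPM (0.55). In C1q-poor T-like cells 28 of 41 genes were higher and 1 lower, where 28.5% of all genes were higher and 19.3% lower, with a median of 0.91. With barcodes of 5 to 10% mitochondrial UMIs alone, the T-like median was 0.42.

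NK-like cells carried the programme in 4 of 53 sham cells (7.55%, 2.09 to 18.2) and 23 of 76 TAC cells (30.3%, 20.3 to 41.9), a ratio of 4.01 (1.37 to 16). In TAC the C1q-poor cells gave 17 of 42 (40.5%) and the C1q-rich ones 6 of 34 (17.6%). In sham 3 cells were C1q-poor, so only C1q-rich cells could be compared between the libraries, with a ratio of 2.21 (0.52 to 10.6). With so few cells the genes are given as levels: Top2a was at 57.4 (sham) and 316 CPM (TAC), Mki67 at 42.2 and 229 CPM, Stmn1 at 108 and 525 CPM, and Hmgb2 at 484 and 1781 CPM. Dendritic-like cells, a single cluster led by Cd209a and Mmp12, gave 32 of 251 (12.7%) and 24 of 92 (26.1%), a ratio of 2.05 (1.15 to 3.59), so they already carried the programme often in sham. In that cluster 27.3% of the dendritic markers were detected in at least 50% of cells, a lower share than of the macrophage markers. Its median C1q was 70.6 UMIs per 10000. The ratio was 1.35 (0.58 to 3.02) in its C1q-poor cells and 2.96 (1.28 to 6.78) in its C1q-rich cells. Monocyte-like cells gave 4 of 84 (4.76%) and 30 of 403 (7.44%), and B-like cells 8 of 167 (4.79%) and 5 of 60 (8.33%), with intervals that overlap between the libraries.

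Neutrophil-like cells carried the programme in 3 of 176 sham cells (1.70%, 0.35 to 4.90) and 59 of 1223 TAC cells (4.82%, 3.69 to 6.18), but nearly all of these were C1q-rich. C1q-rich cells gave 3 of 157 (1.91%) and 55 of 496 (11.1%). C1q-poor ones gave 0 of 19 and 4 of 727 (0.55%), and the C1q-poor TAC cells with granule genes (Ltf, Camp and Ngp) gave 0 of 106. Median depth in TAC was 4634 UMIs in C1q-poor and 19600 UMIs in C1q-rich neutrophil-like cells, and the 38 macrophage markers summed to 21191 and 62941 CPM. Over the class, 34 of 42 genes were past 1.5-fold higher and 0 lower, where 13.3% of all genes were higher and 33% lower. The median log2 ratio was 1.60. Top2a, for example, was at 12.3 (sham) and 50.6 CPM (TAC). With C1q-rich barcodes left out, 20 sham and 733 TAC cells remained, and 16 of the genes had enough UMIs. Of these 0 were higher and 6 lower, with a median of -0.07. Over all genes in those cells, 18.4% were higher and 40.6% lower. With so few sham cells, the 0.5 UMI added to each count can lower these ratios. Without it, the summed S genes stood in TAC at 1.43 times sham and the summed G2/M genes at 2.34 times. No direction is read from these cells.

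In fibroblast-like cells the 20 G2/M genes summed to 17.4 CPM in sham and 142 CPM in TAC. Of 26 genes with enough UMIs, 14 were higher and 3 lower, where 9.78% of all genes were higher and 19.1% lower. Genes low in sham reached that minimum through TAC alone, so the count leans to the higher side. Top2a had 4 UMIs in sham (1.89 CPM) and 105 UMIs in TAC (24.1 CPM), and Mki67 had 2 and 62 UMIs. The 16 S genes summed to 99.5 and 92.5 CPM, with Mcm2 at 5.66 (sham) and 1.84 CPM (TAC). Of the cells themselves only 4 in TAC passed the count. In endothelial-like cells 0 of 33 genes were higher and 22 were lower, where 14.2% of all genes were higher and 17.1% lower. Mki67 was at 80.0 (sham) and 16.1 CPM (TAC) there. The programme was carried by 5 of 119 (4.20%) and 8 of 423 (1.89%) cells, a ratio of 0.45 (0.13 to 1.75). That ratio was 0.79 (0.078 to 39.0) in C1q-poor and 1.10 (0.21 to 5.92) in C1q-rich endothelial-like cells. In the same order, the summed S genes stood in TAC at 0.93 and 0.63 times sham and the summed G2/M genes at 0.49 and 0.62 times. An unnamed cluster with little C1q and a median depth of 40778 UMIs, cluster 13, held many carrying cells in both libraries, 54 of 177 (30.5%) in sham and 26 of 93 (28.0%) in TAC. In that cluster 4 genes were higher and 11 lower, where 8.35% of all genes were higher and 8.15% lower, and 10 of the 11 were among the 16 phase-specific S genes. Cluster 17, led by Il7r, Il1a and Vegfa, gave 3 of 59 (5.08%) and 48 of 455 (10.5%). Both clusters were kept out of the macrophage-like class by rules set after the data were seen.

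The balance of the phases was taken as the UMIs of the 20 G2/M genes over those of the 16 S genes. In macrophage-like cells it was 1.98 (1.91 to 2.04) in sham and 2.13 (2.08 to 2.18) in TAC, with S genes at 201 and 303 CPM and G2/M genes at 397 and 645 CPM, so both phases were higher in TAC by a like ratio. Without the cluster led by cell cycle genes, the balance was 1.62 times as high in TAC as in sham, and with at most 5% mitochondrial UMIs 0.48 times. In T-like cells the balance stood at 1.26 (1.14 to 1.41) and 1.97 (1.90 to 2.05), with S genes at 258 and 526 CPM. In NK-like cells it was 1.99 and 3.09, and in neutrophil-like cells 0.99 and 1.91. Cells with Ccr2 gave 1.02 and 1.93, MHC class II cells 1.73 and 2.51, and resident cells 1.58 and 1.64. The fibroblast-like balance was 0.18 and 1.53 and the endothelial-like one 1.31 and 0.79, while cluster 13 gave 2.71 and 5.95. Counted by cell, 32 sham macrophage-like cells had S genes only, 34 both sets and 68 G2/M genes only. In TAC the numbers were 67, 31 and 135.

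**Figure D4:**
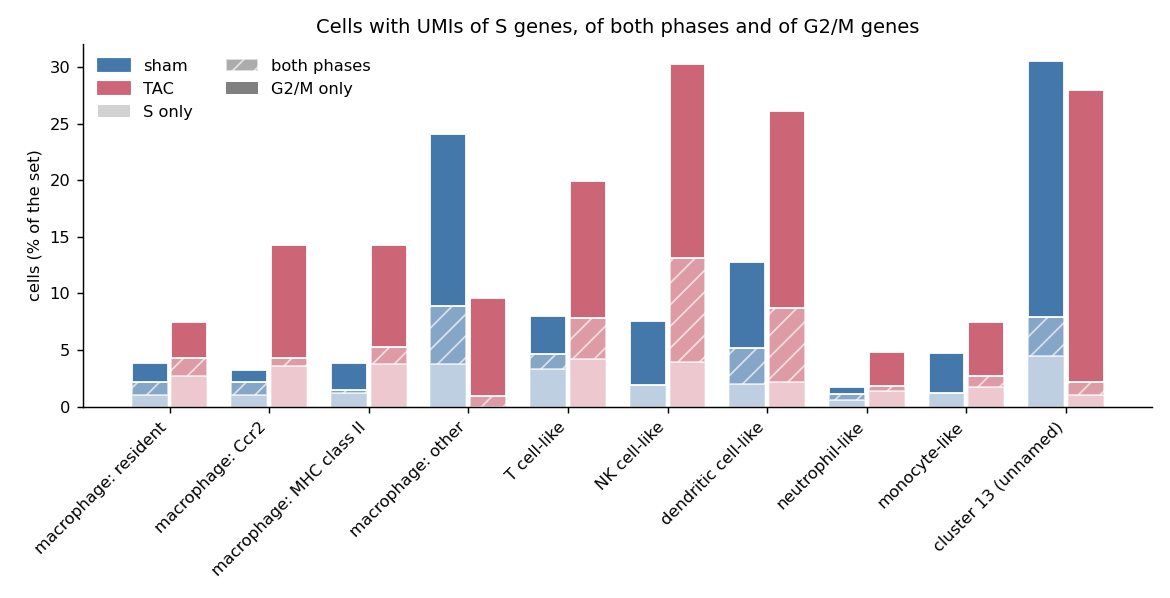
Cells with S genes only, with both sets and with G2/M genes only, stacked as a percentage of all thinned cells of each group and library. Macrophage-like cells hold 32, 34 and 68 such cells in sham and 67, 31 and 135 in TAC, so those with both sets are the smallest group in TAC.

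The mitochondrial share of a barcode moved with the genes and with the library. Among barcodes with under 5% mitochondrial UMIs, of which sham had 121 and TAC 3440, the S genes summed to 289 CPM in sham and 299 CPM in TAC, and the G2/M genes to 769 and 724 CPM. From 5 to 10%, with 4048 and 2161 barcodes, the S genes summed to 244 and 240 CPM and the G2/M genes to 503 and 473 CPM. Over all classes together the libraries thus lay close within each of these ranges, and the range with more of both phases held most of the TAC barcodes. These sums mix classes in unlike parts: neutrophil-like cells made up 4.25% of kept sham and 21.9% of kept TAC cells. From 5 to 10%, the programme was carried by 4.94% of sham and 8.31% of TAC macrophage-like cells. The shares were 8.70% and 6.19% in T-like and 1.71% and 3.29% in neutrophil-like cells. Whether the mitochondrial share accounts for the differences within classes was not tested beyond the values given for each class.

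**Figure D5:**
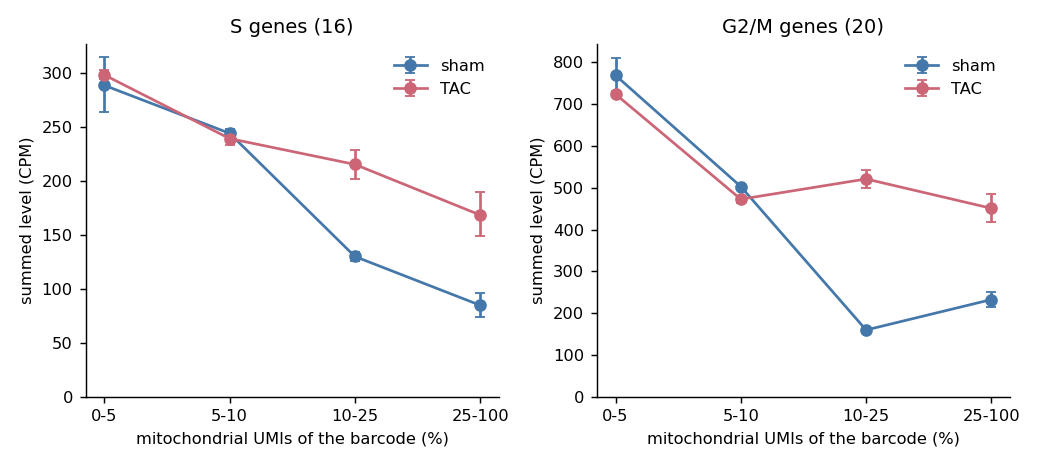
Summed level (CPM, vertical axis) of the 16 S and the 20 G2/M genes in all barcodes with at least 300 genes, by their mitochondrial share (%, horizontal axis), for sham and TAC. The libraries lie close below 10% (S 244 and 240 CPM from 5 to 10%) and TAC lies above sham beyond it.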

How the data were processed

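The authors deposited 1 matrix per library with counts of unique molecular identifiers per gene and barcode, made with Cell Ranger 3.0 on mm10, per the submitters' processing notes. The sources used here do not say how cell barcodes were called. The 42 genes, the companion lists and the tests were chosen with earlier results of these data known. Kept barcodes had 300 genes or more and no more than 10% mitochondrial UMIs (50738794 sham and 90373295 TAC UMIs). Both libraries were clustered together, without integration and without 136 cell cycle genes, on 2000 variable genes, 30 components, 15 neighbours and Leiden resolution 1, which gave 22 clusters. A cluster was named for the class that had 3 or more markers among its 10 leading genes, otherwise the class with at least 55% of its markers in at least 50% of cells. After the data were seen, clusters with under 20 C1q UMIs per 10000 or with leading genes of another kind were dropped from the macrophage-like class. No doublet caller was run.

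Summed counts were compared in classes that had 100 or more cells per library, and also in C1q-poor T-like and neutrophil-like cells and in cluster 13, which had fewer, for genes with at least 20 UMIs, as CPM with exact Poisson intervals, and log2 ratios had 0.5 UMI added. A gene past 1.5-fold is a description, since 1 library per group allows no test. Shares have Clopper-Pearson intervals, and a count of 0 is given the limit of 3 counts. The scripts were tested on simulated data. Values are given in full for the gene with most UMIs of each role, for Mki67 and Top2a, and for the 3 highest and 3 lowest ratios in macrophage-like and T-like cells, and of each companion list for the 2 highest and 2 lowest. Genes named in other classes were chosen after their values were seen. Promoters come from RefSeq on GRCm38.p6 and the overlaps of genes from GENCODE vM21 (GRCm38). Clustering used scanpy 1.11.5 with the Leiden routine of igraph 0.11.9 and with scikit-learn 1.9.0. Tables used pandas 2.3.3 and numpy 2.4.6, intervals scipy 1.17.1 and figures matplotlib 3.10.9. All ran in Python 3.11.15. Of 19 alternative settings, 5 were added after the data were seen.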

Additional observations from a re-analysis of the deposited data

Results flagged for a closer look

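Barcodes with over 10% mitochondrial UMIs are outside the comparisons, but they hold UMIs of the cell cycle genes at a higher level in TAC than in sham. From 10 to 25%, the 16 S genes summed to 216 CPM in TAC and 130 CPM in sham, and the 20 G2/M genes to 521 and 160 CPM. Above 25%, the S genes summed to 169 and 84.9 CPM and the G2/M genes to 451 and 233 CPM. With 1 library per group these differences were not tested.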

How the results depend on the processing

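No paired analysis was possible because each group is 1 library. Values are log2 TAC to sham ratios unless said otherwise, and 5 settings (2 that put dropped clusters back, barcodes of 5 to 10% mitochondrial UMIs alone, another random seed, and the class without the cluster led by cell cycle genes) were chosen after seeing the data. The share of macrophage-like cells with the programme (1.12) kept its direction in all 16 settings run and moved in 7: 2.20 with at most 25% mitochondrial UMIs, 0.21 with at most 5%, 0.78 with at most 30000 UMIs, 0.78 thinned to 1000 UMIs, 0.80 with both dropped clusters back, 0.75 with 5 to 10% mitochondrial UMIs and 1.94 without the cycle-led cluster. In the same order, leaving out the thinning, the median of the 42 genes in macrophage-like cells (0.69) was 1.52, -0.35, 0.40, 0.27, 0.42 and 1.33, and the genes past 1.5-fold (26) numbered 13 at 30000 UMIs, 4 with both clusters back and 12 with 5 to 10%, with 5 higher and 18 lower at 5%. The balance (0.11) was 0.65 at 25%, -1.07 at 5%, 0.040 at 30000 UMIs, 0.0049 with 5 to 10% and 0.69 without the cycle-led cluster. The T-like share (1.31) kept its direction in 14 of 15 settings and was -0.49 with 5 to 10%, and the T-like median (1.38) moved to 2.28 at 5%, 0.91 with C1q-rich barcodes left out and 0.42 with 5 to 10%. The neutrophil-like share (1.5) kept its direction in 13 of 14 settings and was -0.26 at 30000 UMIs. The neutrophil-like median (1.60) was -1.87 at 5%, with 1 sham cell, and -0.070 with C1q-rich barcodes left out, with 20 sham cells. It was 0.43 at 30000 UMIs, 0.95 as a mean over cells and 1.06 with 5 to 10%. Apart from fewer cells or UMIs where a setting leaves barcodes out, the cause was not tested. No value came from the T-like and neutrophil-like shares at 5%, with 0 of 11 and 0 of 1 sham cells, or from the C1q-poor neutrophil-like share, with 0 of 19 in sham. Thinned to 1000 UMIs, the macrophage-like shares were 3.57% and 6.13%, so the share counted depends on depth.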
